A study of Mus musculus with 31 samples.

Results

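The Arp2/3 complex was examined in the caudate putamen (CPu), the dorsal part of the striatum, through the 10 genes that encode its subunits: Arpc1a, Arpc1b, Arpc2, Arpc3, Arpc4, Arpc5, Arpc5l, Actr2, Actr3 and Actr3b. These are 10 of the 52636 genes in the table, taken by name. These genes were chosen by measured values: the complex was picked because Arpc3 and Arpc4 were higher in vehicle administered WT mice, so each difference that involves those mice is given here as a description without a test. Expression was measured by RNA-sequencing of 31 female mice aged 8 to 11 weeks, on a C57BL/6NTac background, with 1 tissue punch per mouse from the right side. WT mice and mice heterozygous for a targeted deletion in Brd1 (Brd1+/-), which encodes a chromatin regulator, were given saline vehicle (8 WT and 7 Brd1+/- mice) or the tricyclic antidepressant imipramine (IMN) at 10 mg/kg (8 WT and 8 Brd1+/- mice). All mice, controls included, had gone through behavioral tests, and were killed shortly after a forced swim. The Brd1+/- mice came from 1 mouse line, and a punch holds every cell type of the sampled tissue.

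The Arp2/3 complex starts a new actin filament on the side of an existing one and so builds branched actin networks. Arp2 (Actr2) and Arp3 (Actr3 or Actr3b) resemble actin and form the base of the new filament, Arpc2 and Arpc4 form the core that binds the mother filament, and Arpc1, Arpc3 and Arpc5 complete the complex. It is inactive until a nucleation-promoting factor of the WASP or WAVE type binds it, and in neurons it is known for its part in growing and maintaining dendritic spines.

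Brd1 was at 22.5 ± 2.97 TPM (mean and SD) in vehicle WT mice and 13.4 ± 2.02 TPM in vehicle Brd1+/- mice, and under IMN at 19.9 ± 2.67 TPM in WT and 12.8 ± 1.04 TPM in Brd1+/- mice. TPM, a transcript abundance, corrects each gene for its length and sets the same total in each mouse, so levels can be compared between genes. WT vehicle mouse 7 had 26.8 TPM summed over 4 Y-linked genes, against at most 0.188 TPM in each other mouse, although all mice are labelled female. The score of 10 cortical neuron markers, their mean log2(TPM + 1), was 5.83 to 7.01 in 6 of the 8 vehicle WT mice and 2.45 and 2.55 in the other two, mice 6 and 8, against 2.75 to 4.54 in vehicle Brd1+/- mice, 2.45 to 5.92 in IMN WT mice and 2.53 to 4.91 in IMN Brd1+/- mice. In those 6 vehicle WT mice the score of 10 striatal neuron markers was 3.20 to 8.53, whereas it was at least 8.16 in each other mouse, so the markers of the labelled tissue were weak in part of this group. No gene of either list was at 0 in all mice of a group. In bulk tissue, fewer cells of a type and less RNA per cell cannot be told apart.

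All 10 genes were expressed in every mouse, and their levels spanned more than an order of magnitude. Averaged over the 31 mice, Arpc2 was the most abundant at 286 ± 23.7 TPM (SD) and was above every other subunit gene in all 31. Arpc3 followed at 168.5 ± 31.6 TPM and Arpc1a at 157.5 ± 15.2 TPM. Arpc3 was the higher of these neighbours in 8 of 8 vehicle WT mice, the group for which it was picked, and in 8 of the other 23, so their order rests on that group. Actr3 (104.7 ± 21.4 TPM) and Actr2 (104.7 ± 11.2 TPM) had the same mean, with Actr3 higher in 10 of 31 mice. Actr3b had 91.1 ± 8.85 TPM and was below Actr2 in 28 mice. Arpc5l had 73.0 ± 20.3 TPM and Arpc4 52.1 ± 11.8 TPM, with Arpc5l higher in 26 mice. Arpc5 at 22.5 ± 4.86 TPM and Arpc1b at 13.5 ± 3.96 TPM were the least abundant. When alternative genes for 1 position were summed (Arpc1a with Arpc1b, Arpc5 with Arpc5l, Actr3 with Actr3b), Arpc4 was the lowest of the 7 positions in 31 of 31 mice and Arpc2 the highest in 31 of 31. With the near copies of Actr3 described further on added to Actr3, the Arp3 position was above Arpc2 in 7 of 31 mice, and Arpc4 was still the lowest in 31. The level of Arpc4 mRNA was thus below that of each other position in each mouse.

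**Figure D1:**
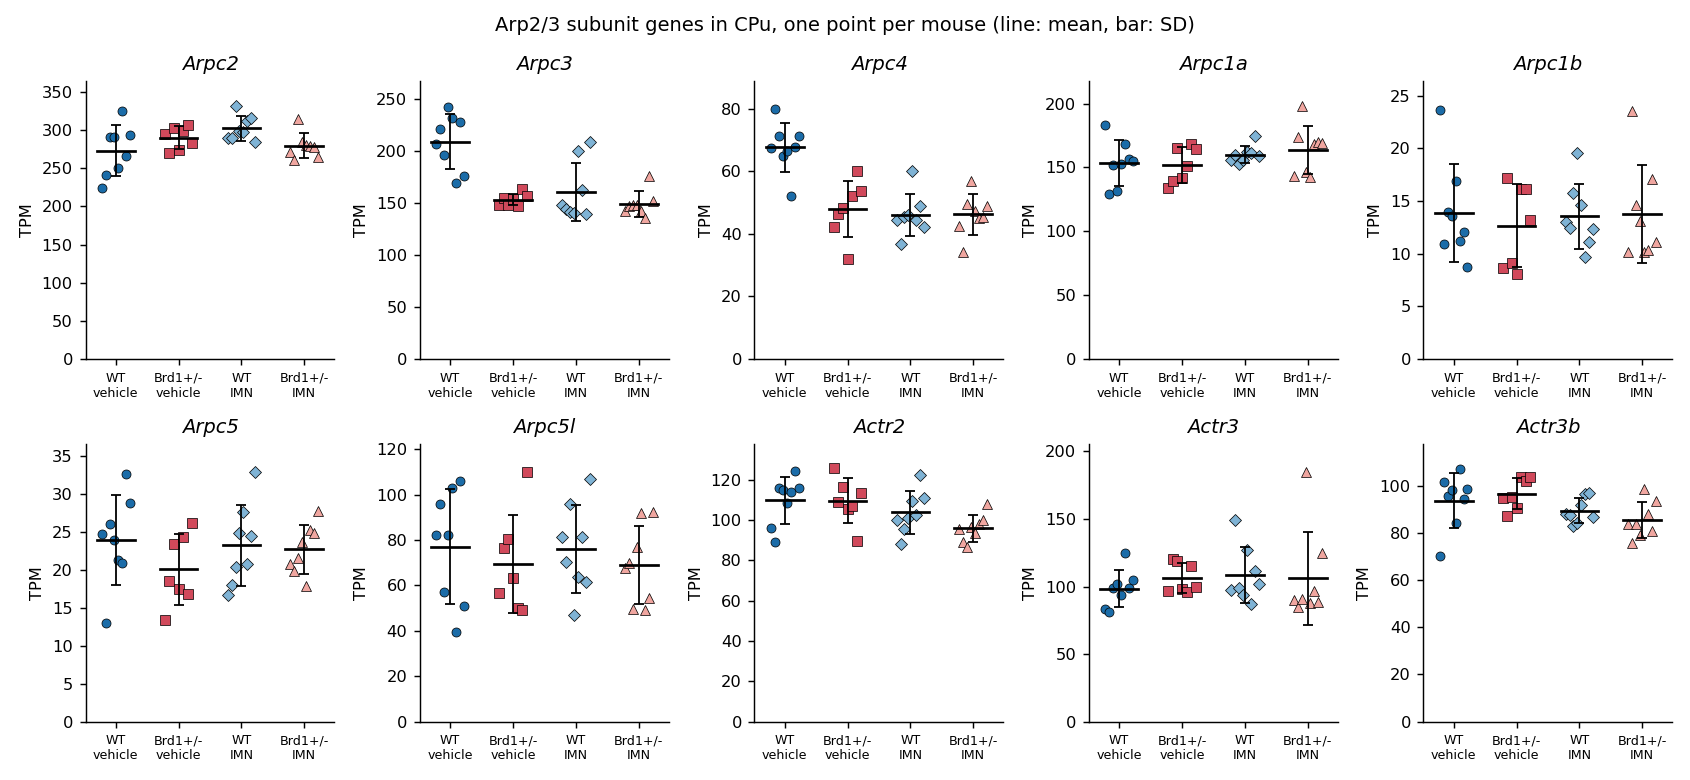
TPM of the 10 Arp2/3 genes in each mouse, 1 panel per gene, with 1 point per mouse, a line at the group mean and a bar for the SD; each vertical axis starts at 0. In the Arpc3 panel the lowest vehicle WT mouse, at 169 TPM, lies above the highest vehicle Brd1+/- mouse, at 163 TPM, whereas the panels of the other 9 genes show overlapping groups.

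Arpc3, which encodes the small subunit next to Arp3, lies on chr5:122391878-122414184 (GRCm38, plus strand), and Arpc4, which encodes a core subunit, on chr6:113378115-113390448 (plus strand). As the genes for which the complex was picked, they are shown with the sequence just before their RefSeq starts (GRCm38.p6), read 5′ to 3′. The Arpc3 sequence is chr5:122391628-122391877 and the Arpc4 sequence chr6:113377884-113378112. The capitals mark CCGGAAG, the core sequence bound by ETS-family transcription factors.
Arpc3: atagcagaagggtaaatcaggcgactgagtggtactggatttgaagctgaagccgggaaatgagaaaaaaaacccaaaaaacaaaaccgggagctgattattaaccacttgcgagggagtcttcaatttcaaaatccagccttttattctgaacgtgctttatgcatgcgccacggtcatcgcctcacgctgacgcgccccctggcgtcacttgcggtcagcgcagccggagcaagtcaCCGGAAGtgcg
Arpc4: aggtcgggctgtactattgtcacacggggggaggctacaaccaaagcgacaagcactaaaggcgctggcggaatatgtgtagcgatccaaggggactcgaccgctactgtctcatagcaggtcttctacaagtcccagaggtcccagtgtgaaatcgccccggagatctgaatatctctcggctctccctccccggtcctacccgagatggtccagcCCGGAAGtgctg

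The motif began 11 bases upstream of the RefSeq start in Arpc3 and 12 bases upstream in Arpc4. Such a place was not particular to them, since it began 8 bases upstream (and again 86) in Actr3. In Arpc1a it lay 25 bases before the RefSeq start on the other strand, inside an annotated Arpc1a exon (chr5:145083830-145083868). The leading 21 bases of the Arpc4 window belong to an exon of Tada3 on the opposite strand and are left out. On either strand, CCGGAAG occurred in the windows of 5 of the 8 Arp2/3 genes that the RefSeq table held (Arpc1a, Arpc3, Arpc4, Actr2 and Actr3), against 6.9% of 32851 promoter windows of the same 250 bases. GGGCGG (GC box), also searched on both strands, occurred in 5 of 8 (Arpc1b, Arpc2, Arpc5, Actr2 and Actr3) against 32.7% of windows, and in neither Arpc3 nor Arpc4. These 2 motifs were those found in the most genes, and other known promoter motifs were searched in the same way. The CCAAT box occurred in 2 of 8 (against 33.8% of windows). CArG box, NRF1 and E box motifs each occurred in 1 of 8 (against 1.5%, 0.8% and 6.0%). CRE, TATA box and YY1 motifs occurred in 0 of 8 (against 1.5%, 12.4% and 1.6%). The CArG box match was in the Arpc4 window, within the 21 bases left out. A match describes the sequence and is not evidence of binding.

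Under vehicle, the question was how the genes differed between Brd1+/- and WT mice. Arpc3 had 169, 214 and 242 TPM (lowest, median and highest mouse) in WT mice and 148, 154 and 163 TPM in Brd1+/- mice. The groups did not overlap. The mean was 209 ± 26.6 TPM in WT and 153 ± 5.63 TPM in Brd1+/- mice, a log2 difference of −0.43 (SE 0.08) on the log2(TPM + 1) scale, used for all log2 differences here. Arpc4 had 52.1, 67.6 and 79.9 TPM in WT mice and 32.1, 48.3 and 60.1 TPM in Brd1+/- mice. These groups overlapped through WT mouse 6 alone, the other 7 WT mice being at 65.0 TPM or above. The mean was 67.7 ± 7.82 TPM in WT and 47.9 ± 9.01 TPM in Brd1+/- mice, a log2 difference of −0.50 (SE 0.12). In Brd1+/- mice the mean was thus 73.4% of WT for Arpc3 and 70.8% for Arpc4.

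The other 8 genes lay closer to 0 under vehicle, as deposited, and were not tested against Arpc3 and Arpc4. Arpc5 had the next lowest log2 difference at −0.23 (SE 0.17), then Arpc5l at −0.13 (SE 0.22) and Arpc1b at −0.12 (SE 0.21). Arpc1a (−0.01, SE 0.08), Actr2 (−0.00, SE 0.08), Actr3b (0.05, SE 0.08), Arpc2 (0.09, SE 0.08) and Actr3 (0.12, SE 0.09) lay near 0 or above it. A log2 difference of −0.25 or less was found for 2 of 10 genes, against 29.9% of the 23200 genes compared, and one of 0.25 or more for 0 of 10, against 7.27%. Groups that did not overlap, with Brd1+/- mice lower, were found for 1 of 10, against 0.272%. Nothing is read from these counts, since the same contrast chose the genes. The median over the 10 was −0.07, against −0.13 over all genes.

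The shift of all genes under vehicle bears on the sign of these values. With median-of-ratios scaling between mice, which brings the median of all genes to −0.00, the log2 difference was −0.24 (SE 0.07) for Arpc3 and −0.32 (SE 0.11) for Arpc4, and the Arpc3 groups overlapped. On this scale Arpc5 was at −0.05 (SE 0.18), and the remaining 7 were above 0, up to 0.28 (SE 0.12) for Arpc2 and 0.30 (SE 0.12) for Actr3. The number of genes below 0 was accordingly 7 of 10 as deposited (72.8% of all genes) and 3 of 10 with scaling (50.2%). Arpc3 and Arpc4 were below 0 with both.

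Cortical neuron markers moved with this difference: 10 of 10 were below 0, as deposited, in vehicle Brd1+/- against WT mice, and 10 of 10 striatal markers were above 0. With median-of-ratios scaling the cortical markers Nrgn (0.13) and Lamp5 (0.10) were above 0. The median of the 10 cortical markers was then −1.86, against −2.03 as deposited. The 10 cortical markers summed to between 2442 and 5953 TPM in vehicle WT mice and between 2017 and 3448 TPM in vehicle Brd1+/- mice. The most abundant of them, Nrgn, had similar means of 2812 TPM in vehicle WT and 2693 TPM in vehicle Brd1+/- mice. The next, Slc17a7, had means of 805 and 85.9 TPM, so the sum understates the difference in the other markers. The WT mice with low cortical scores, 6 and 8, had the lowest Arpc3 of their group, 169 and 176 TPM. Their Arpc4 was 52.1 and 71.4 TPM, the lowest and the second highest of the group. With the cortical score as a covariate the log2 difference was −0.29 for Arpc3 and −0.42 for Arpc4, and with the striatal score, a fit added after seeing the data, it was −0.35 and −0.42. Arpc5 was at −0.28 with the cortical and −0.48 with the striatal score as a covariate, the latter below both Arpc3 and Arpc4, and the other 7 genes were between −0.12 and 0.25 in these fits. The part of tissue makeup in this difference was not tested. Without WT vehicle mouse 7, the one with Y-linked RNA, the values were −0.41 and −0.50.

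**Figure D2:**
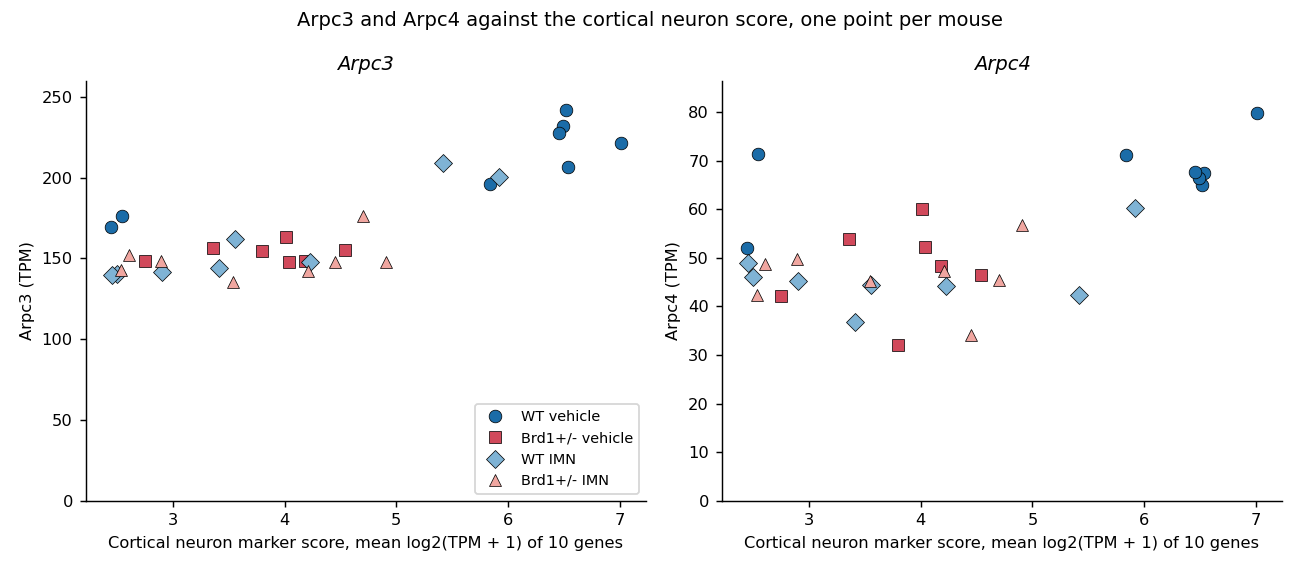
Arpc3 (left) and Arpc4 (right) in TPM against the cortical neuron score, the mean log2(TPM + 1) of 10 marker genes, with 1 point per mouse and 1 symbol per group. Arpc3 was at 196 TPM or above in 8 mice, all with a score of at least 5.42, and WT vehicle mice 6 and 8 lie at the left edge at 169 and 176 TPM.

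The effect of IMN in WT mice was compared next, again without a test because it involves the vehicle WT mice. Arpc4 had 36.8, 44.8 and 60.3 TPM in IMN WT mice, with a mean of 46.0 ± 6.73 TPM that was 68.0% of vehicle WT (log2 difference −0.55, SE 0.09). The groups overlapped through IMN WT mouse 5 and vehicle WT mouse 6. Arpc3 had 140, 146 and 209 TPM, with a mean of 161 ± 28.2 TPM, 76.9% of vehicle WT (log2 difference −0.38, SE 0.10). Its range came from mice 5 and 8, at 200.4 and 209 TPM, while the other 6 were at 162 TPM or below. Those 2 mice also had the highest cortical scores of their group, 5.92 and 5.42, and with the cortical score as a covariate the log2 difference was −0.19 for Arpc3 and −0.46 for Arpc4. The part of tissue makeup in the difference was not tested further.

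The remaining genes ranged from −0.08 (Actr2, SE 0.08) to 0.15 (Arpc2, SE 0.07) with IMN in WT mice. A log2 difference of −0.25 or less was found for 2 of 10, against 21.6% of 23579 genes, and one of 0.25 or more for 0 of 10, against 7.77%. Values below 0 were found for 6 of 10, against 67.5%. With median-of-ratios scaling Arpc3 was at −0.26 (SE 0.08) and Arpc4 at −0.43 (SE 0.09), and the other 8 were all above 0, with Arpc2 at 0.28 (SE 0.11) and Actr3 at 0.25 (SE 0.14). Both comparisons use the same 8 vehicle WT mice, so their likeness is not a second observation.

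**Figure D3:**
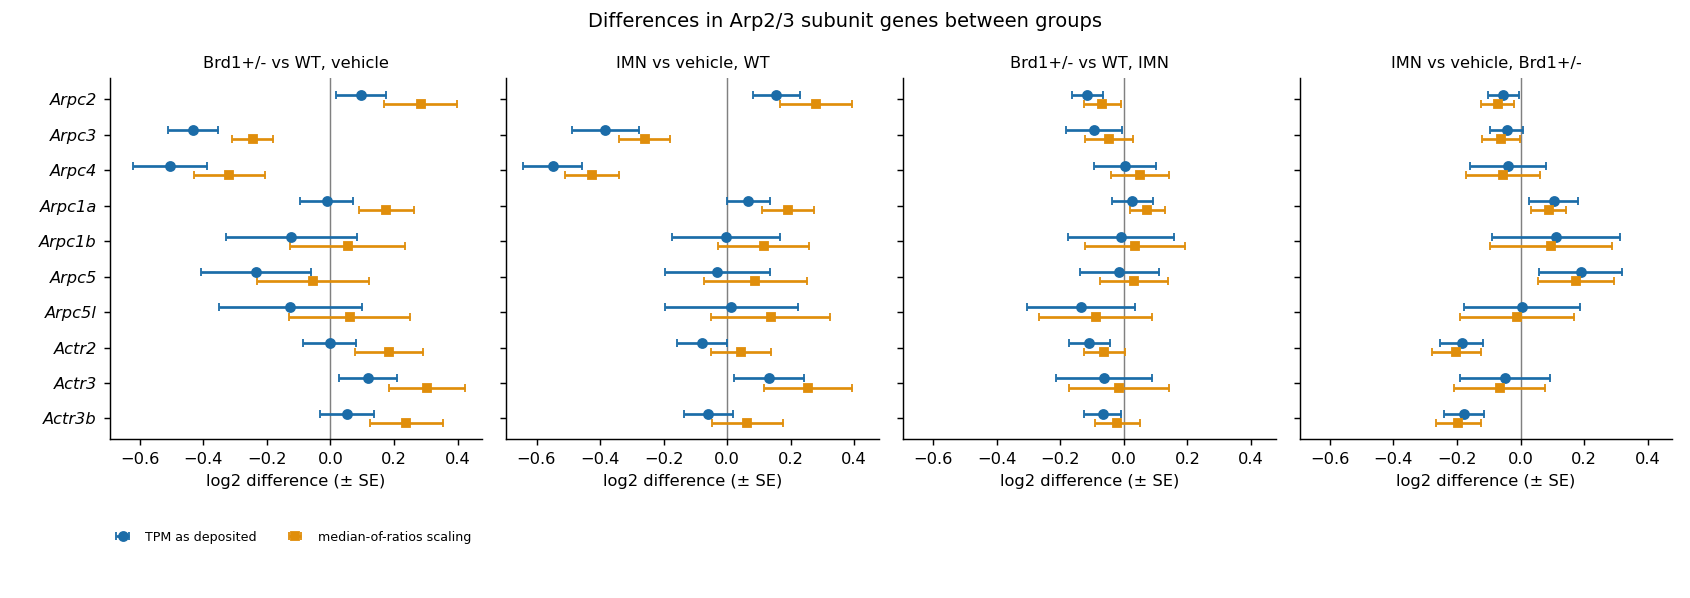
Log2 difference of each Arp2/3 gene in 4 comparisons, as a point with a bar for its SE, for TPM as deposited (circles) and after median-of-ratios scaling (squares). The circles of Arpc3 and Arpc4 lie at −0.38 to −0.55 in the 2 left panels, which both use the vehicle WT mice, and between −0.09 and 0.00 in the 2 right panels; their squares lie at −0.24 to −0.43 and between −0.06 and 0.05.

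Brd1+/- and WT mice under IMN were compared with a test, since no vehicle WT mouse enters. Of the 10 genes 0 passed p under 0.01, against 0.703% of the 23339 genes tested, and 1 passed p under 0.05, against 3.92%; 0 passed an FDR of 5%, against 0.00428%. Arpc4 had 34.1, 46.3 and 56.8 TPM in IMN Brd1+/- mice, against 36.8, 44.8 and 60.3 TPM in IMN WT mice. Its log2 difference was 0.00 (SE 0.10, 95% confidence interval −0.20 to 0.21, adjusted p = 1.00). Arpc3 had 136, 148 and 176 TPM in IMN Brd1+/- mice, and its log2 difference was −0.09 (SE 0.09, 95% interval −0.28 to 0.09, adjusted p = 0.998). For both genes the groups overlapped, and IMN WT mice 5 and 8 lay above each IMN Brd1+/- mouse for Arpc3. The effects of genotype under vehicle and under IMN were not tested against each other, since that test would use the vehicle WT mice.

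Arpc2, the core subunit that contacts the mother filament (chr1:74236084-74268209, plus strand), was the gene under 0.05. It had 284, 298 and 332 TPM in IMN WT mice and 261, 278 and 315 TPM in IMN Brd1+/- mice. The log2 difference was −0.11 (SE 0.05, 95% interval −0.22 to −0.01, adjusted p = 0.998), which does not pass the correction. It was −0.07 with median-of-ratios scaling and −0.09 with quantile normalization, and with either of these, or with all 4 groups in 1 fit, it did not pass p under 0.05. The largest Brd1+/- value, mouse 3 at 315 TPM, stood above the other 7 at 261.5 to 284.5 TPM, and without that mouse the log2 difference was −0.14 and passed p under 0.01. The remaining 7 genes had log2 differences between −0.13 (Arpc5l, SE 0.17) and 0.03 (Arpc1a, SE 0.06), and the median over the 10 was −0.06, against −0.03 over all genes.

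IMN was compared with vehicle in Brd1+/- mice in the same way. Here 0 of 10 genes passed p under 0.01, against 1.83% of 23020 genes, and 2 passed p under 0.05, against 7.09%; 0 passed an FDR of 5%, against 0% of all genes. Arpc3 (log2 difference −0.04, SE 0.05, 95% interval −0.16 to 0.07, adjusted p = 0.913) and Arpc4 (−0.04, SE 0.12, 95% interval −0.29 to 0.21, adjusted p = 0.969) did not differ beyond the spread between mice. The pair under 0.05 were both genes for the actin-like subunits. Actr3b, the alternative Arp3 gene that is abundant in brain (chr5:25759997-25850688, plus strand), had 86.9, 95.3 and 104 TPM with vehicle and 75.8, 83.8 and 98.4 TPM with IMN. Its log2 difference was −0.18 (SE 0.06, 95% interval −0.31 to −0.05, adjusted p = 0.559).

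Actr2, the gene for Arp2 (chr11:20062304-20112913, minus strand), had 89.8, 109 and 126 TPM with vehicle and 86.6, 96.2 and 108 TPM with IMN in Brd1+/- mice. Its log2 difference was −0.19 (SE 0.07, 95% interval −0.33 to −0.04, adjusted p = 0.571). In both genes the groups overlapped, and neither passed the correction over all genes. Of the 10 striatal markers 10 were below 0 in the same comparison (median −0.19), 1 of them at p under 0.01. With the striatal score as a covariate Actr2 and Actr3b were at −0.15 and −0.11, and neither passed p under 0.05. Actr3b passed p under 0.01, as 1 of 10 genes, without a filter on low values (−0.18), with the cortical score as a covariate (−0.18) and in the fit blocked by mouse number (−0.20). The other genes had log2 differences between −0.05 (Arpc2, SE 0.05) and 0.19 (Arpc5, SE 0.13), and the median over the 10 was −0.04, against 0.01 over all genes.

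3 positions of the complex can be filled from alternative genes, and the share of each alternative was compared within mice, where scaling between mice cancels. Arpc1b, which lies beside Arpc1a on chromosome 5 and is the form known for its place in blood and immune cells, made up 5.25% to 11.9% of the Arpc1 mRNA (TPM of both genes) over all mice. The group means were 8.21% ± 2.02 in vehicle WT, 7.66% ± 2.22 in vehicle Brd1+/-, 7.82% ± 1.80 in IMN WT and 7.67% ± 2.04 in IMN Brd1+/- mice. Arpc5l (chr2:39005348-39015877) exceeded Arpc5 (chr1:152766542-152775597) in each mouse, with 64.0% to 88.1% of the Arpc5 mRNA. Its group means lay between 74.5% ± 5.82 (IMN Brd1+/-) and 77.1% ± 4.89 (vehicle Brd1+/-). Actr3b made up 29.9% to 55.6% of the Arp3 mRNA, with group means from 45.5% ± 4.54 (IMN WT) to 48.8% ± 3.04 (vehicle WT). The near copies of Actr3 described further on, with group means of 74.5 to 79.8 TPM, are left out of this share. Counting them as Actr3 would lower it. In 6 exact permutation tests of the log2 ratio, 3 between genotypes under IMN and 3 between treatments in Brd1+/- mice, two-sided p was 0.393 to 0.984 and each adjusted p was 0.984.

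**Figure D4:**
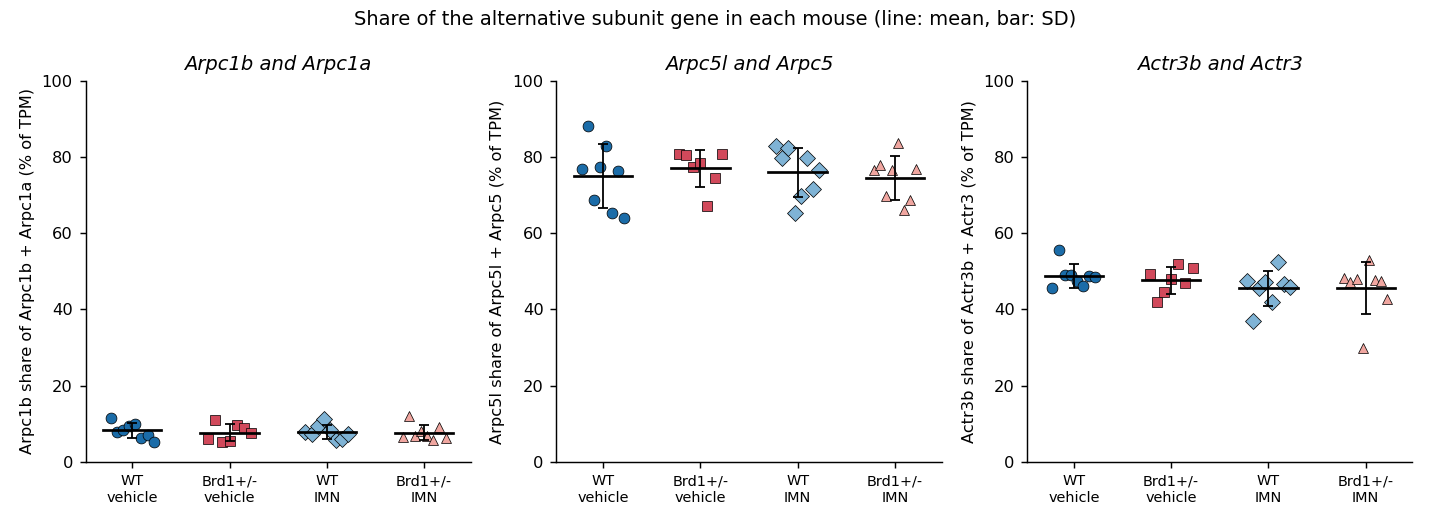
Share of the alternative gene in the summed TPM of both genes for its position, in % from 0 to 100, with 1 point per mouse, a line at the group mean and a bar for the SD. Arpc1b was at 11.9% or below in each mouse and Arpc5l at 64.0% or above, and the lowest Actr3b share, 29.9%, was in an IMN Brd1+/- mouse. The Actr3b share leaves out the near copies of Actr3.

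Some of these levels may hold reads of other genes. Actr3 (chr1:125392905-125435727, minus strand) has the processed pseudogene Gm8822, which matches its transcript at 98.8% over 2348 bases and was itself listed at 39.8 TPM on average, and Gm15899, which matches over 238 bases and was listed at 37.3 TPM. Actr3 and these copies together had 176 TPM (median) in vehicle WT, 181 in vehicle Brd1+/-, 186 in IMN WT and 167 in IMN Brd1+/- mice. IMN Brd1+/- mouse 4 had 185 TPM of Actr3 against 84.5 to 125 in the other 7, while its copies were at 75.3 TPM, within the 70.7 to 79.6 TPM of that group. Exons of Arpc1b (chr5:145114215-145130705, plus strand) overlap those of Pdap1 on the other strand, which was listed at 48.0 TPM on average. Arpc1b also has the processed pseudogene Gm5637, which matches at 96.5% over 1131 bases and was listed at 1.88 TPM, and Actr2 has Gm9729 (265 bases), listed at 0.028 TPM. Arpc2 has the processed pseudogene AC154544.1, which matches at 96.1% over 510 bases and has no listed level. Exons of Arpc4 overlap 283 bases of Ttll3 on the same strand, listed at 9.14 TPM. Exons of Arpc1a (chr5:145083830-145108761, plus strand) overlap Kpna7, and those of Arpc5l overlap Wdr38 and Rpl35. Whether the libraries keep strand is not given in the sources used here, so how reads were divided in these stretches is uncertain.

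The correlation of Arpc3 with Arpc4 was lower outside the group for which they were picked. Over all 31 mice their log2(TPM + 1) had a Pearson r of 0.68, over the 23 mice without vehicle WT 0.20, and over the 16 IMN mice 0.22. The genes most like Arpc3 over 31 mice, among 17390 with a mean of at least 1 TPM, were Arhgdig (r = 0.958), Atp6v0d1 (0.942), Atp6v0c-ps1 (0.940), Tubb4b-ps2 (0.938) and Atp6v1e1 (0.936), and without the vehicle WT mice their r was 0.837 to 0.913. The genes most like Arpc4 were Snrpn (r = 0.796), Rnf123 (0.791), Zfp622 (0.786), Mxi1 (0.781) and Csnk1g2 (0.779), with 0.533 to 0.626 without the vehicle WT mice. Arpc4 stood at rank 2798 for Arpc3, and Arpc3 at rank 420 for Arpc4. These values are descriptions over mice that share groups and tissue makeup. Within the 16 IMN mice, with group means removed, the 45 pairs of Arp2/3 genes had a median r of 0.05, and 26 were above 0. The highest were Arpc5 with Actr2 (0.68) and Arpc3 with Arpc5 (0.61), and the lowest was Arpc1b with Actr3b (−0.76).

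The relation to tissue makeup was tested for each gene over the 16 IMN mice, without the vehicle WT mice, in 20 permutation tests (10 genes and 2 marker scores). Arpc3 followed the cortical score with r = 0.74 (permutation p = 0.00092, adjusted p = 0.0184) and Spearman's rho = 0.64 (permutation p = 0.00845, adjusted p = 0.169). Without the 2 mice farthest from the median score r was 0.43 (permutation p = 0.124), so the relation rests on those mice. It was 0.92 in the 8 IMN WT mice (exact permutation p = 0.00553, adjusted p = 0.111) and 0.34 in the 8 IMN Brd1+/- mice (exact permutation p = 0.474, adjusted p = 0.995). Arpc4 had r = 0.19 with the cortical score (permutation p = 0.472, adjusted p = 0.725) and rho = −0.05 (permutation p = 0.864, adjusted p = 0.960). Arpc3 with the striatal score had r = −0.60 (permutation p = 0.0185, adjusted p = 0.185) and rho = −0.44 (permutation p = 0.0854, adjusted p = 0.756). No other gene had an adjusted p under 0.05 for r with either score.

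The other genes of the pathway were taken as 76 genes in 8 lists. Between genotypes under IMN 0 were higher and 2 lower at p under 0.01 (2.63% of 76, against 0.514% of all genes lower), and with IMN in Brd1+/- mice 0 were higher and 2 lower (2.63%, against 0.964%). None passed an FDR of 5% in either. Among 10 nucleation-promoting factors, which switch the complex on, 1 gene passed in both comparisons. Hcls1, the cortactin relative of blood-derived cells, had a mean of 2.30 ± 0.453 TPM in IMN Brd1+/-, 3.24 ± 0.565 TPM in IMN WT and 3.40 ± 0.902 TPM in vehicle Brd1+/- mice. Its log2 difference was −0.36 between genotypes under IMN (SE 0.10, adjusted p = 0.998) and −0.40 with IMN in Brd1+/- mice (SE 0.13, adjusted p = 0.523). These comparisons share the IMN Brd1+/- mice. Markers of red blood cells, another blood-derived type, had positive log2 differences between genotypes under IMN in 5 of 5 genes (0.45 to 0.66), whereas 63.3% of all genes were below 0. Of these 5 markers 1 passed p under 0.01 (Alas2, an enzyme of heme synthesis), against 0.703% of all genes, and 0 an FDR of 5%. Their summed level was 205 to 535 TPM in IMN Brd1+/- and 163 to 323 TPM in IMN WT mice, and with IMN in Brd1+/- mice 0 of 5 passed p under 0.05 (−0.21 to 0.17). IMN WT mice were also below vehicle WT mice in 5 of 5 (−0.57 to −0.43), where 67.5% of all genes were below 0. With median-of-ratios scaling the median of these 5 was −0.42, against −0.54 as deposited. Markers of microglia, the resident immune cells of the brain, were between −0.18 and 0.01 between genotypes under IMN, with 0 of 10 at p under 0.05. As deposited 9 of 10 were below 0, against 63.3% of all genes. With median-of-ratios scaling their median was −0.0035, against −0.05 as deposited, and P2ry12, Csf1r, C1qa and C1qb were above 0. The sign count is thus not read as a result about microglia. The summed level of the microglia markers was 358 to 441 TPM in IMN Brd1+/-, 389 to 436 TPM in IMN WT and 388 to 506 TPM in vehicle Brd1+/- mice. With IMN in Brd1+/- mice these markers were between −0.33 and 0.09, with a median of −0.04, against 0.01 over all genes. Of the 10, 0 passed p under 0.01 there and 1 passed p under 0.05, against 7.09% of all genes. The part of blood and microglial content in these results was not tested.

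Of 11 partners of WASP and WAVE, Nckap1l, a WAVE complex subunit of blood-derived cells, was lower with IMN in Brd1+/- mice at 4.80 ± 0.332 against 5.71 ± 0.412 TPM (log2 difference −0.21, SE 0.07, adjusted p = 0.5265). Of 16 other actin nucleators, Fmnl1, a formin that builds unbranched filaments, was lower in IMN Brd1+/- than in IMN WT mice at 74.6 ± 3.31 against 91.5 ± 13.9 TPM (log2 difference −0.28, SE 0.08, adjusted p = 0.998). The 4 genes of the WASH complex, 10 inhibitors and debranching factors, 6 upstream GTPases, 11 actin and monomer-binding genes and 8 other actin-related proteins gave no call at p under 0.01 in these comparisons. Between genotypes under vehicle, given as a description of TPM as deposited, 33 of the 76 had a log2 difference of −0.25 or less (against 29.9% of all genes) and 8 one of 0.25 or more (against 7.27%). With IMN in WT mice, also as deposited, these were 21 (against 21.6%) and 5 (against 7.77%). Both involve the vehicle WT mice and the shift of all genes. With median-of-ratios scaling the median log2 difference of the 76 was −0.03 under vehicle, against −0.19 as deposited, and −0.02 with IMN in WT mice, against −0.14. Scaling also evened the shares of all genes, to 15.2% lower and 13.1% higher by these limits under vehicle. With IMN in WT mice they became 12.6% and 11.7%. The excess of lower genes in these counts is thus not read as a result about the pathway.

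Summed over the 10 genes, Arp2/3 mRNA was 1061, 1124 and 1187 TPM (lowest, median and highest mouse) in vehicle WT mice, and 985, 1047 and 1124 TPM in vehicle Brd1+/- mice. It was 1011, 1080.0 and 1155 TPM in IMN WT mice, and 968, 1024 and 1110.0 TPM in IMN Brd1+/- mice. The ranges of the 4 groups overlapped.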

How the data were processed

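CPu punches of 31 mice were sequenced by the authors as 50-base single-end reads. According to the methods and processing notes, reads were aligned to GRCm38 with HISAT2 2.1.0 and quantified with StringTie 1.3.4. The authors deposited TPM, not counts, for 52636 Ensembl genes; the values of each mouse sum to 999787 to 999918, so the depth per mouse is unknown and precision rests on the spread between mice. The edgeR test of the study needs counts and was not run. GENCODE M21 named 52403 genes. Genes above 0.1 TPM in at least 7 mice of a comparison were fitted on log2(TPM + 1) with limma 3.58.1 (R 4.3.3, trend in the prior variance), 2 groups at a time, two-sided, with Benjamini-Hochberg adjustment over all genes. Thresholds were p under 0.01 and an FDR of 5%. All 10 Arp2/3 genes passed the filter in each comparison. Exact permutation tests enumerated all regroupings of mice, and permutation tests of correlations used 100000 resamples. The fit was tested on simulated data. The members, pathway lists and markers were chosen with earlier results of these data known. The text names all members, the 5 genes most like Arpc3 and Arpc4 by Pearson r, and listed genes under p 0.01 in comparisons without vehicle WT mice; Pdap1, Ttll3, Kpna7, Wdr38, Rpl35, Tada3 and the pseudogenes were named for their position or sequence. Near copies were transcripts matching at 95% or more over at least 200 bases. Promoter windows came from RefSeq. The paper describes the WT and Brd1+/- mice as litter-matched, but labels do not tie mice to litters. Litter was therefore not in the fits, and p-values measure the spread between these mice treated as unmatched. Alternatives were other pseudocounts, filters, scalings, covariates, a block for mouse number, 1 fit of all groups, and leaving out each mouse.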

Additional observations from a re-analysis of the deposited data

Results flagged for a closer look

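Among 40 combinations of an Arp2/3 gene and a group, 4 had 1 mouse set apart from the rest of its group by Dixon's criterion, which chance meets in about 1 in 20. Arpc1a was 174.5 TPM in IMN WT mouse 7, against 152.6 to 161.7 TPM in the other 7. Arpc2 was 315.2 TPM in IMN Brd1+/- mouse 3, against 261.5 to 284.5 TPM. Arpc3 was 176.2 TPM in IMN Brd1+/- mouse 7, against 135.6 to 152.3 TPM, and without it the log2 difference between genotypes under IMN was −0.13 in place of −0.09. Actr3 was 184.7 TPM in IMN Brd1+/- mouse 4, against 84.5 to 124.8 TPM, and without it that log2 difference was −0.18 in place of −0.06. Outside the main measurement, the sum of 4 Y-linked genes was 26.79 TPM in vehicle WT mouse 7, against 0 to 0.188 TPM in the other vehicle WT mice. Its source was not tested.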

How the results depend on the processing

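Differences of Arpc3 and Arpc4 that involve vehicle WT mice kept their sign under all alternatives run, between −0.19 and −0.605. Both genes were picked for being higher in those mice, so the kept sign is no independent support. Under vehicle, the 2 genes at −0.25 or less became 1 with median-of-ratios scaling and 1 with quantile normalization, where Arpc3 was at −0.24 and −0.22, and the median of the 10 became 0.12 and 0.14. The count became 3 with the cortical and 3 with the striatal score as a covariate, through Arpc5 at −0.28 and −0.48. With mice left out in turn it was 2 to 4; it was 4 without vehicle WT mouse 6, where Arpc5 and Arpc5l were at −0.26 and −0.25. With IMN in WT mice the 2 became 1 with quantile normalization, where the median became 0.12, and 1 with the cortical score as a covariate.

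Under IMN the count of genes at p under 0.01 was 0 to 1 with mice left out (1, Arpc2, without IMN Brd1+/- mouse 3). With IMN in Brd1+/- mice it was 1, always Actr3b, without a filter and with the cortical score as a covariate, and 0 to 2 with mice left out: Actr3b without vehicle mouse 2 or IMN mouse 5, Actr2 without vehicle mouse 6, and both without IMN mouse 8. The cause was not tested.

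Of the tested differences, those that turned sign were within their SE. Between genotypes under IMN, Arpc1b became 0.0351 and Arpc5 0.0312 with median-of-ratios scaling (0.0388 and 0.0334 with quantile normalization). With IMN in Brd1+/- mice, Arpc5l became −0.0116 with median-of-ratios scaling. With mice left out, ranges between genotypes under IMN were −0.0136 to 0.0535 for Arpc1a, −0.1206 to 0.0667 for Arpc1b, −0.039 to 0.0638 for Arpc4, −0.0741 to 0.0593 for Arpc5 and −0.1828 to 0.0067 for Actr3. With IMN in Brd1+/- mice they were −7e-04 to 0.1893 for Arpc1b, −0.1294 to 0.0197 for Arpc4 and −0.0675 to 0.1225 for Arpc5l. Log2 ratios ranged from −0.1342 to 0.0458 (Arpc1b to Arpc1a) and −0.0774 to 0.1313 (Actr3b to Actr3) between genotypes, and from −0.0927 to 0.1045 and −0.1912 to 0.0063 with IMN. The 1 gene following the cortical score became 0 in IMN WT mice alone and 0 in IMN Brd1+/- mice alone, where r of Arpc3 with the striatal score was 0.11.

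The labels do not tie mouse numbers to a litter or day, and in no comparison did every same-numbered pair correlate over 0.1, so the numbers were not taken to pair the samples. The pairs over 0.1 were 0 of 7 between genotypes under vehicle, 2 of 8 under IMN, 2 of 8 with IMN in WT and 3 of 7 with IMN in Brd1+/- mice, and in the last comparison 3 of 7 mice in 1 group correlated best with their own number in the other, against 0 in the other comparisons. With the mouse number as a replicate block, 1 gene passed p under 0.01 with IMN in Brd1+/- mice (Actr3b, −0.20), Arpc5l was at −0.0595, and Arpc3 and Arpc4 under vehicle were at −0.47 and −0.49. Unknown depth and the spread between mice limit precision.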
